A study of Mus musculus with 8 samples.

Results

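Genes of the major histocompatibility complex (MHC) class I antigen processing pathway were followed across 4 groups of mouse embryonic fibroblasts, which are connective tissue cells grown from embryos. They are the 10 genes Tap1, Tap2, Tapbp, Psmb8, Psmb9, Psmb10, Psme1, Psme2, B2m and H2-K1. Every probe that the platform annotation gives 1 of these symbols was taken, which gave 16 of the 25697 probes of the bead array. Of the 10 genes, 8 were detected well enough to be tested, among 9340 genes tested in all. All cells were of the C57BL/6J background. Wild type cells were either untreated or exposed to doxorubicin for 12 h. The other cells were staggerer, a mouse mutation that deletes part of Rora, which encodes the nuclear receptor RORα, and were likewise untreated or exposed to doxorubicin for 12 h. Each group had 2 arrays. Doxorubicin, a drug used against tumours, causes DNA breaks through topoisomerase II. Its dose is not given in the sources used here, nor is the number of embryos or cultures behind each genotype. The p-values therefore measure the spread between arrays, part or all of which may be technical, and a difference by genotype cannot be told apart from a difference between cell isolates.

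MHC class I molecules show peptides from inside the cell to T cells. The proteasome cuts proteins into these peptides, the TAP transporter moves them into the endoplasmic reticulum, and a loading complex places them on a class I heavy chain paired with β2-microglobulin. Interferons replace the catalytic subunits of the proteasome by inducible ones, which form the immunoproteasome, and raise the transporter, the PA28 activator and the heavy chains. Unstimulated fibroblasts make some of these proteins at a low level.

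The regions before the start sites of 4 of the genes are shown. Boxes through which this pathway is known to be switched on are marked where they occur, and not every region carries each box. Tap1 and Psmb9, which rose most in wild type cells, have 1 region between them. Sequences are from RefSeq (GRCm38.p6), with 250 bases before each start site, on the strand of the gene. Capitals mark matches, on either strand, to the interferon-stimulated response element (GAAA, any 2 bases, GAAA), the shorter interferon regulatory factor (IRF) core AANNGAAA that overlaps it, the NF-κB consensus, the CCAAT box (the Y box of MHC promoters), the X2 box core TGACG and the GC box GGGCGG.
Tap1, chr17:34187306-34187555, plus strand: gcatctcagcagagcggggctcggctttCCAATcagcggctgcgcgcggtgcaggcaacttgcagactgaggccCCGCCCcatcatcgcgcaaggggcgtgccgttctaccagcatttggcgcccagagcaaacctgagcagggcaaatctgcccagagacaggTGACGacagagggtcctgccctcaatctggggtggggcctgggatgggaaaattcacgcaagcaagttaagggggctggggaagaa
Tapbp, chr17:33919228-33919477, plus strand: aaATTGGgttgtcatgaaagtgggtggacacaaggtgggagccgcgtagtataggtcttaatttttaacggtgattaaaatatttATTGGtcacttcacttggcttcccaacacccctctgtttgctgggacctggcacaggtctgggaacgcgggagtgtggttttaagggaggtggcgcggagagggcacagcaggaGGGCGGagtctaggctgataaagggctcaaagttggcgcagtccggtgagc
B2m, chr2:122147437-122147686, plus strand: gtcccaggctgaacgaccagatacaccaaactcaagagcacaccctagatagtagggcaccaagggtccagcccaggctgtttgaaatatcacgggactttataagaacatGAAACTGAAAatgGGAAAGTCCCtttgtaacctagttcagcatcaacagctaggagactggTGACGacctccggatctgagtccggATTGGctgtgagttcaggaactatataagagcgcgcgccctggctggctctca
H2-K1, chr17:34000348-34000597, minus strand: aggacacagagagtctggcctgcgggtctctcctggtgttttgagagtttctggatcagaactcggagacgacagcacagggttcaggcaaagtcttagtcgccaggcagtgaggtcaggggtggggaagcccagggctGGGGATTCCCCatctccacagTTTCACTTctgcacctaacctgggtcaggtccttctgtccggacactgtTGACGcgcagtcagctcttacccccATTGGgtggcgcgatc
Tap1 and Psmb9 are read away from each other, with 225 bases between their start sites. Their windows of 300 bases, which run from 250 bases before the start to 50 bases after it, shared 275 bases. The region printed for Tap1 thus holds all 225 bases between the start sites and runs past the start of Psmb9.

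Windows were given for 9 of the 10 genes, all but Tap2. In the Tap1 region the CCAAT box lay at -222 to -218 from the Tap1 start, the GC box at -176 to -171 and the X2 core at -86 to -82. B2m held the interferon-stimulated response element at -139 to -130 from its start, an NF-κB match at -126 to -117, an X2 core and a CCAAT box. Psme1 held the same response element, in the bases just after its start. Of all 32851 windows in the table, 3.44% held the interferon-stimulated response element, 23.9% the IRF core, 8.46% the NF-κB consensus, 37.4% CCAAT, 20.8% TGACG and 35.7% GGGCGG. The gamma-activated site TTCNNNGAA, in 8.3% of all windows, was matched in that of Psmb8 among these genes. The windows of Tap1, Tapbp and Psmb9 held 0 matches to it, to the interferon-stimulated response element, to the IRF core and to the NF-κB consensus. A match is a string of letters and not a shown binding site, and the absence of one speaks for these windows alone.

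The arrays of doxorubicin-treated staggerer cells stood apart from the other 6. They detected 9576 and 9246 probes, against 10942 to 11572 on the other arrays. Their median background-corrected signal was 7.64 and 7.55 on the log2 scale, against 8.61 to 9.11 elsewhere, while the 99th percentile, 14.76 and 14.72, lay within the range of the other arrays (14.41 to 14.89). Quantile normalization, which gives every array the same distribution, was therefore compared with 4 other scalings. With no normalization between arrays the median of all tested genes fell by 0.56 from untreated to treated staggerer cells on the log2 scale, against a shift of 0.03 after quantile normalization. With arrays centred on the median of the genes tested it rose by 0.56. The share of called genes that rose was 49% after quantile normalization, 16.7% without it and 69.6% with that centring. In the same order it was 46.4%, 30.5% and 47.6% in wild type cells, 51.7%, 11.7% and 52.6% between untreated genotypes, 45%, 20.1% and 62.7% between treated genotypes, and 45%, 28.6% and 64.6% in the interaction. For changes in treated staggerer cells the range over the 5 scalings, or the number of scalings in which they passed, is therefore given. In such bulk RNA, fewer cells of a type and less RNA per cell cannot be told apart. Fibroblast markers were well detected: 9 of 11 had a tested probe, and all 9 were detected on both arrays of the other groups and 8 on both arrays of treated staggerer cells. In wild type cells 7 of these 9 fell with treatment and 0 rose under all 5 scalings, with a median of -0.80 on the log2 scale, and in staggerer cells 3 rose and 3 fell. Of all genes, 26.4% rose and 30.5% fell in wild type, and 31.9% and 33.2% in staggerer cells. The part of these marker changes in the values of the class I genes was not tested.

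Tap1 and Psmb9 rose most in wild type cells, about 6 and 8 times on the linear scale, and rose less in staggerer cells. Tapbp showed the opposite order, with a larger rise in staggerer cells. Those 3 differences between genotypes held under all 5 scalings, each on the brightest probe of the gene. The other tested genes changed by less, and for several of them the direction in staggerer cells depended on the scaling. In wild type cells 4 of the 8 tested genes rose (Psmb9, Tap1, Tapbp and B2m) and 1 fell (Psmb10), where 56.9% of all 9340 genes were called, 26.4% higher and 30.5% lower. In staggerer cells 6 of 8 rose and 0 fell by the same limma test, where 65.1% of all genes were called, 31.9% higher and 33.2% lower, and at an unadjusted p below 0.05 the number of these genes that passed was 7. The median fold change of the 8 genes was 0.33 in wild type and 0.78 in staggerer cells on the log2 scale, beside -0.09 and 0.03 over all genes. Psmb8 and H2-K1 were too weakly detected to be tested, so these counts describe the genes measured and not the whole pathway.

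**Figure D1:**
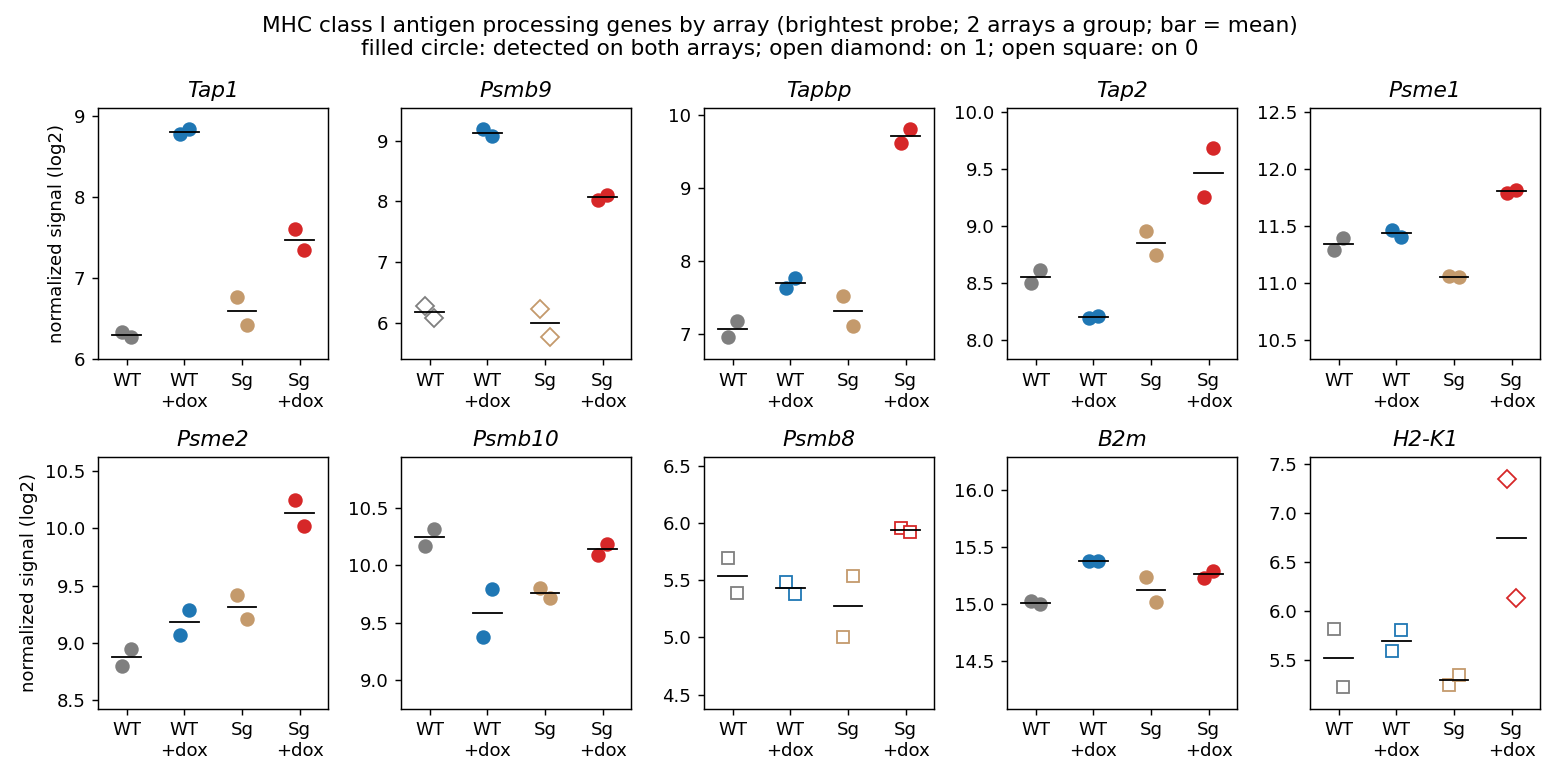
Normalized log2 signal (y axis) of the 10 genes on each array, by group (x axis, WT for wild type, Sg for staggerer, dox for 12 h of doxorubicin), with a bar at the mean of the 2 arrays. Open symbols are groups in which 1 array (diamond) or none (square) detected the gene. Tap1 and Psmb9 are highest in treated wild type cells, and Tapbp, Psme1 and Psme2 in treated staggerer cells.

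Tap1 encodes a subunit of the peptide transporter. Its normalized log2 signal (probe ILMN_1250409) was 6.33 and 6.27 in untreated wild type, 8.78 and 8.84 in treated wild type, 6.77 and 6.41 in untreated staggerer, and 7.61 and 7.34 in treated staggerer cells. Both treated groups lay above both untreated groups without overlap, and the treated wild type arrays were the highest. The gene rose by 2.51 ± 0.16 in wild type cells (log2 fold change ± SE, limma adjusted p = 1.86e-05), which is 5.69-fold. In staggerer cells the change was 0.88 ± 0.16 (adjusted p = 0.00184), which is 1.84-fold. The difference between these changes was -1.63 ± 0.22 (interaction, adjusted p = 0.00077), and Tap1 was lower by 1.33 on the log2 scale in treated staggerer than in treated wild type cells (adjusted p = 0.000167).

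The rise of Tap1 in staggerer cells depended on the scaling. The scanner's linear intensities there were 262.5 and 240.7 without treatment and 268.3 and 245.8 with it, so they differed little, while in wild type cells they went from 284.4 and 248.1 to 658 and 664.3. The 99th percentile of the control rows was between 232.6 and 281.6 on these arrays, which places Tap1 close to background outside treated wild type cells. Over the 5 scalings the change in staggerer cells ran from 0.02 to 1.14 and passed the test in 3. The rise in wild type cells (1.38 to 2.64) and the difference between genotypes (-2.33 to -0.96) passed in all 5.

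Psmb9 (LMP2) encodes an inducible catalytic subunit of the immunoproteasome, and is the neighbour of Tap1. Its normalized log2 signal (probe ILMN_1242466) was 6.27 and 6.07 in untreated wild type, 9.19 and 9.07 in treated wild type, 6.22 and 5.76 in untreated staggerer, and 8.03 and 8.11 in treated staggerer cells. It was detected on 1 of 2 arrays in each untreated group and on both arrays after treatment, and treated and untreated arrays did not overlap. Psmb9 rose by 2.96 ± 0.17 in wild type cells (adjusted p = 1.37e-05), which is 7.77-fold, and by 2.08 ± 0.17 in staggerer cells (adjusted p = 5.18e-05), which is 4.22-fold. Both rises passed in all 5 scalings, between 1.66 and 3.12 in wild type and between 0.97 and 2.35 in staggerer cells. The rise was smaller in staggerer cells by 0.88 on the log2 scale (interaction -0.88 ± 0.24, adjusted p = 0.0159). That difference also passed in all 5 scalings, but not without wild type untreated replicate 2 (-0.78, adjusted p = 0.0588) or wild type treated replicate 1 (-0.82, adjusted p = 0.0546).

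Of the 7 other tested genes, Psmb9 was the one nearest to Tap1 in its pattern over the 8 arrays. The root mean square difference of their gene-centred log2 values was 0.47, against 0.85 to 1.22 between Tap1 and each of the other 6 genes. Pairs of genes that changed little were closer, such as Psme1 and B2m (0.25) and Tap2 and Psme2 (0.30). Genes outside the pathway lay closer to Tap1 than Psmb9 did, such as Pigf (0.09). This distance uses the values of the same 8 arrays as the fold changes and is a description.

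Tapbp encodes tapasin, which bridges the transporter and the empty class I molecule. Its normalized log2 signal on the brighter probe (ILMN_3155492) was 6.96 and 7.18 in untreated wild type, 7.64 and 7.77 in treated wild type, 7.53 and 7.12 in untreated staggerer, and 9.62 and 9.81 in treated staggerer cells. The treated staggerer arrays were above all 6 others. In staggerer cells Tapbp rose by 2.39 ± 0.17 (adjusted p = 3e-05), which is 5.24-fold, and this change was between 1.48 and 2.60 over the 5 scalings. The scanner's intensities showed it before any scaling, at 353.2 and 303 without treatment against 623 and 661.4 with it. In wild type cells the rise was 0.64 ± 0.17 (adjusted p = 0.0149). That call was lost without wild type untreated replicate 1 (adjusted p = 0.0934) or wild type treated replicate 2 (adjusted p = 0.0811), and with no normalization between arrays (0.38, adjusted p = 0.105).

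The difference between genotypes in the response of Tapbp was 1.75 ± 0.24 (interaction, adjusted p = 0.000786), and passed in all 5 scalings (1.11 to 1.93). A second Tapbp probe (ILMN_1226819) moved the same way by a smaller amount in staggerer cells. There it changed by 1.33 ± 0.13, against 0.83 ± 0.13 in wild type cells, and the difference of 0.50 ± 0.18 had an adjusted p of 0.0473 over all probes. Before any scaling its intensities rose by like amounts in both genotypes. They went from 344.8 and 325.9 to 406 and 405.1 in wild type, and from 302 and 318.4 to 353.2 and 365.7 in staggerer cells. The 5 scalings were compared on the brighter probe alone, so the larger response of Tapbp in staggerer cells rests mainly on that probe.

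Tap2 encodes the partner subunit of the transporter, and did not follow Tap1. Arrays gave a normalized log2 signal of 8.50 and 8.61 in untreated wild type, 8.19 and 8.21 in treated wild type, 8.95 and 8.74 in untreated staggerer, and 9.25 and 9.68 in treated staggerer cells. The change in wild type cells was -0.36 ± 0.17 and did not pass (adjusted p = 0.103). The change in staggerer cells, 0.62 ± 0.17 (adjusted p = 0.0124), turned negative under 2 of the 5 scalings, to -0.19 with arrays centred on the median of all probes and to -0.35 with no normalization between arrays. Without staggerer untreated replicate 2 it did not pass (adjusted p = 0.0789). The direction of Tap2 in staggerer cells was thus not settled by these arrays.

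**Figure D2:**
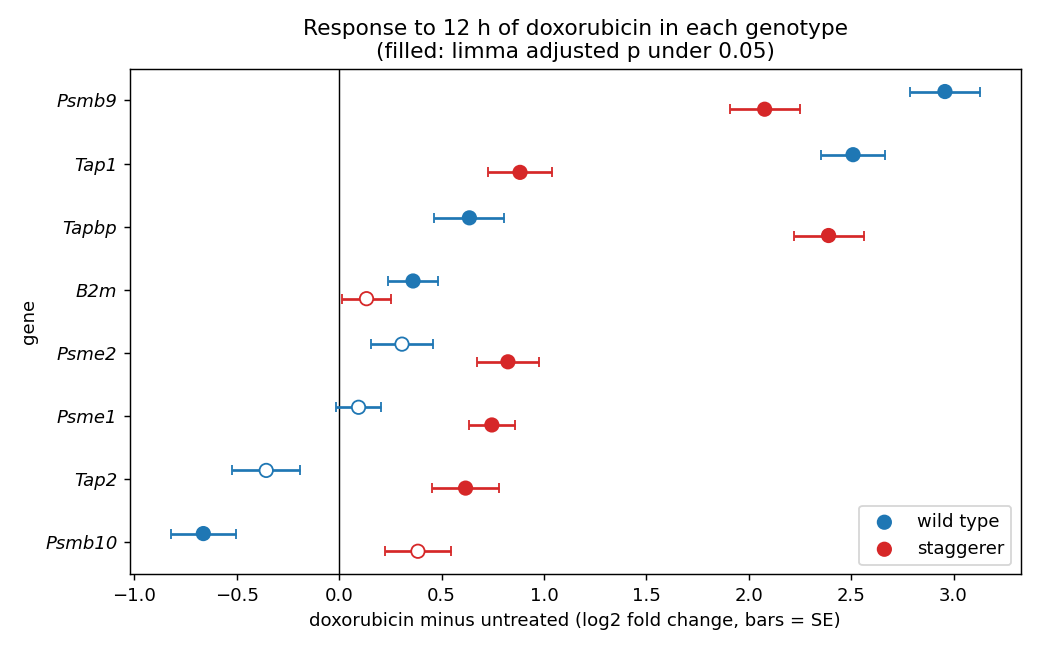
Log2 fold change from untreated to doxorubicin-treated cells (x axis) of the 8 tested genes (y axis) in wild type and staggerer cells, with bars of 1 SE from limma and filled points where the adjusted p was below 0.05. Tap1 and Psmb9 lie further right in wild type cells (2.51 and 2.96) than in staggerer cells (0.88 and 2.08), while Tapbp lies further right in staggerer cells (2.39 against 0.64).

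Psme1 and Psme2 encode the subunits of PA28, a ring that opens the proteasome and favours release of peptides. Psme1 had a normalized log2 signal of 11.29 and 11.39 in untreated wild type, 11.47 and 11.40 in treated wild type, 11.06 and 11.05 in untreated staggerer, and 11.79 and 11.82 in treated staggerer cells. It changed by 0.09 ± 0.11 in wild type cells (adjusted p = 0.497) and rose by 0.75 ± 0.11 in staggerer cells (adjusted p = 0.000763). The difference was 0.65 ± 0.16 (interaction, adjusted p = 0.00916). In staggerer cells the values stayed above 0 under the 5 scalings (0.35 to 1.47) and passed in 4, all but the values with no normalization between arrays. The second Psme1 probe gave 0.19 and 0.99 in the same order.

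Psme2 had a normalized log2 signal of 8.80 and 8.95 in untreated wild type, 9.07 and 9.29 in treated wild type, 9.41 and 9.21 in untreated staggerer, and 10.25 and 10.02 in treated staggerer cells. Its change was 0.31 ± 0.15 in wild type cells, which did not pass (adjusted p = 0.119), and 0.82 ± 0.15 in staggerer cells (adjusted p = 0.00202). The staggerer value was -0.05 with no normalization between arrays and 0.11 with arrays centred on the median of all probes, and passed under the other 3 scalings. The difference between the responses of the genotypes, 0.52 ± 0.21, missed the threshold (adjusted p = 0.0684). It passed without background correction (0.45, adjusted p = 0.0216) and with centring on the genes tested (0.79, adjusted p = 0.0144).

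Psmb10 (MECL-1), another inducible catalytic subunit, fell in wild type cells, where Psmb9 rose. The normalized log2 signal was 10.17 and 10.32 in untreated wild type, 9.37 and 9.79 in treated wild type, 9.80 and 9.71 in untreated staggerer, and 10.09 and 10.19 in treated staggerer cells. In wild type cells it fell by 0.66 on the log2 scale (-0.66 ± 0.16, adjusted p = 0.00939), and this passed in all 5 scalings (-0.93 to -0.56). The call did not hold without wild type untreated replicate 2 (adjusted p = 0.0609) or wild type treated replicate 1 (adjusted p = 0.0571). A second probe gave -0.57. In staggerer cells the change of 0.38 ± 0.16 did not pass (adjusted p = 0.067). It passed as a rise without background correction (0.33, adjusted p = 0.0221) and with centring on the genes tested (0.66, adjusted p = 0.00535), and as a fall with no normalization between arrays (-0.46, adjusted p = 0.0446), so its direction was not settled. The difference between the responses, 1.05 ± 0.23 (adjusted p = 0.0057), passed in 3 of 5 scalings.

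Psmb8 (LMP7), which completes the set of inducible catalytic subunits, was not detected on any of the 8 arrays. Its linear intensities were 168.3 to 235.4, within the range of the control rows, whose medians were 163.3 to 186. The array therefore gives a bound on its signal and no change. Tested without the detection filter, it gave -0.11 in wild type cells (adjusted p = 0.787) and 0.67 ± 0.20 in staggerer cells (adjusted p = 0.0333), from values below detection.

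B2m encodes β2-microglobulin, the light chain that every class I molecule needs. The normalized log2 signal was 15.02 and 15.00 in untreated wild type, 15.37 and 15.37 in treated wild type, 15.24 and 15.02 in untreated staggerer, and 15.23 and 15.29 in treated staggerer cells. All 8 values lay close together, and near the top of the range, with intensities up to 44762.6 where the brightest probe of any gene read 67163.7 to 69449.4. The rise of 0.36 ± 0.12 in wild type cells passed narrowly (adjusted p = 0.0364). It passed under 2 of 5 scalings, with a lowest value of 0.026 with no normalization between arrays (adjusted p = 0.916), and was lost on leaving out either array of either wild type group (adjusted p up to 0.131). In staggerer cells the change was 0.13 ± 0.12 (adjusted p = 0.362) after quantile normalization, but 1.53 with arrays centred on the median of the genes tested. The second detected B2m probe gave 0.40 and 0.21, and a further probe was not detected on any array.

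H2-K1 encodes the class I heavy chain H-2K. It was detected on 1 of 8 arrays, treated staggerer replicate 1, and was therefore not tested. The normalized log2 signal was 5.81 and 5.23 in untreated wild type, 5.59 and 5.80 in treated wild type, 5.25 and 5.34 in untreated staggerer, and 7.35 and 6.13 in treated staggerer cells. The 2 treated staggerer arrays lay above the other 6, and differed from each other by more than those 6 did. Without the detection filter the change was 0.18 ± 0.37 in wild type (adjusted p = 0.819) and 1.45 ± 0.37 in staggerer cells (adjusted p = 0.0167). The other H2-K1 probe was not detected on any array. Probes of class I heavy chains may read several nearly identical genes.

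Before treatment the genotypes were not shown to differ for any of the 8 tested genes by limma's adjusted p, where 13.0% of all genes were called, 6.69% higher and 6.26% lower. At an unadjusted p below 0.05, 3 of the 8 passed. The largest of these differences were Psmb10, at -0.49 (adjusted p = 0.0939), and Psme2, at 0.44 (adjusted p = 0.105), each staggerer minus wild type. After treatment 5 of 8 genes were higher and 2 were lower in staggerer than in wild type cells, where 72.5% of all genes were called, 32.6% higher and 39.9% lower. The lower ones were Tap1 and Psmb9 (-1.06, adjusted p = 0.000855). The higher ones were Tapbp (2.01, adjusted p = 3.55e-05), Tap2 (1.26, adjusted p = 0.000282), Psme2 (0.95, adjusted p = 0.000752), Psmb10 (0.56, adjusted p = 0.0144) and Psme1 (0.37, adjusted p = 0.0179). Of these, the lower Tap1 and Psmb9 and the higher Tapbp passed under all 5 scalings, while Psmb10 and Psme1 changed sign under at least 1.

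The response to doxorubicin itself differed by genotype for 6 of the 8 genes, more positive in staggerer cells for 4 and less for 2, where 26.6% of all genes were in the first class and 32.5% in the second. The 4 were Tapbp, Psmb10, Tap2 and Psme1. Because 59.2% of all genes were called in this comparison, a call says little about these genes in particular, and the sizes and their range over scalings carry more.

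**Figure D3:**
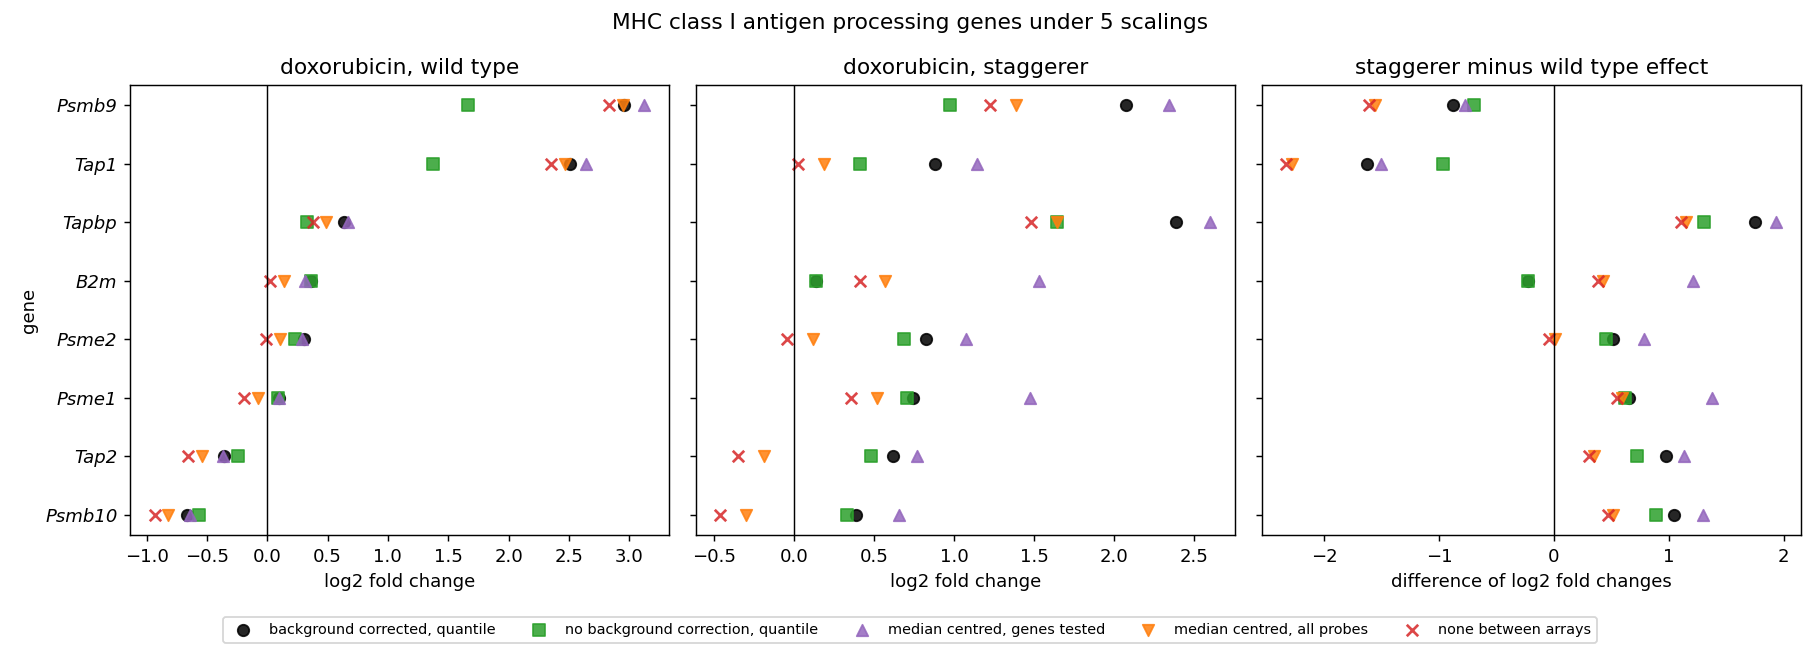
Log2 fold change of the 8 tested genes in wild type cells, in staggerer cells, and the difference between the 2 responses (x axes), under 5 scalings of the arrays (symbols). Values of Tap1 and Psmb9 in wild type cells, of Psmb9 and Tapbp in staggerer cells, and the differences of all 3 stay on 1 side of 0, while Tap2, Psmb10 and Psme2 cross 0 in staggerer cells.

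The constitutive catalytic subunits that the immunoproteasome replaces did not fall together. Psmb6, the counterpart of Psmb9, changed by -0.26 in wild type (adjusted p = 0.137) and -0.13 in staggerer cells (adjusted p = 0.424). Psmb7, the counterpart of Psmb10, fell by 0.66 on the log2 scale in wild type cells (adjusted p = 0.00374), under all 5 scalings. Psmb5, the counterpart of Psmb8, changed by -0.41 in wild type cells (adjusted p = 0.133) and by 0.94 ± 0.21 in staggerer cells (adjusted p = 0.00524, passing under 3 of 5 scalings, 0.21 to 1.33). Of the other activators and the assembly factor, Psme3 did not pass in either genotype. Pomp, which helps to assemble the proteasome, changed by 0.28 in staggerer cells (adjusted p = 0.0539) and passed as higher under the other 4 scalings. Psme4, which encodes the activator PA200, rose by 0.44 in wild type cells (adjusted p = 0.0146, passing under 3 of 5 scalings) and fell by 1.33 in staggerer cells (adjusted p = 7.07e-05), under all 5 scalings.

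Of 10 genes that trim or load peptides, 6 were tested. In wild type cells 0 rose and 2 fell, and in staggerer cells 3 rose and 0 fell, with medians of -0.24 and 0.57. The background shares were those given above, 26.4% higher and 30.5% lower in wild type and 31.9% and 33.2% in staggerer cells. In staggerer cells 2 rose and 2 fell with centring on the median of all probes (median 0.16) and with no normalization between arrays. Calr, the calreticulin of the loading complex, changed by -0.14 in wild type (adjusted p = 0.463) and rose by 0.85 ± 0.15 in staggerer cells (adjusted p = 0.00186), under all 5 scalings. Thop1, a cytosolic peptidase that destroys class I peptides, fell by 1.57 on the log2 scale in wild type cells (adjusted p = 0.000458). In staggerer cells it changed by 0.89 ± 0.20 (adjusted p = 0.00602), passing under 3 of 5 scalings. Tapbpl, a tapasin-related editor of peptides, changed by 0.95 in staggerer cells (adjusted p = 0.00188) and by -0.05 with no normalization between arrays. Canx, Erap1 and Npepps were not detected well enough to be tested.

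Of 21 other class I heavy chain genes 15 had a probe and 6 were tested: 1 rose and 2 fell in wild type cells, and 5 rose and 0 fell in staggerer cells, with medians of -0.18 and 1.26. Of all genes, 26.4% rose and 30.5% fell in wild type, and 31.9% and 33.2% in staggerer cells. In staggerer cells 2 to 6 of the 6 rose and 0 fell under the 5 scalings. H2-T23, which encodes Qa-1, had a normalized log2 signal of 8.16 and 8.58 in untreated wild type, 8.25 and 8.64 in treated wild type, 8.43 and 8.32 in untreated staggerer, and 9.72 and 9.61 in treated staggerer cells. The treated staggerer arrays stood above the rest, and the gene rose there by 1.29 ± 0.19 (adjusted p = 0.000687), passing under 4 of 5 scalings (0.35 to 1.47). H2-D1, the classical heavy chain H-2D, was not detected in untreated staggerer cells. After background correction and quantile normalization it was at least 3.21-fold higher in treated staggerer cells (adjusted p = 0.000445). Over the 5 scalings its log2 change there ran from 0.84 to 2.20 and passed in all 5. In wild type cells H2-D1 changed by -0.20 (adjusted p = 0.539).

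H2-M3, which presents formylated peptides, fell by 0.93 on the log2 scale in wild type cells (adjusted p = 0.000932) and rose by 1.24 in staggerer cells (adjusted p = 0.000198, passing under 4 of 5 scalings). H2-Q7 rose in both, by 1.46 in wild type (adjusted p = 0.000688) and 1.50 in staggerer cells (adjusted p = 0.000505), each under all 5 scalings. Genes of 4 other proteins that pair with β2-microglobulin were tested, and 4 rose in staggerer cells while 1 rose and 2 fell in wild type cells. The shares of all genes were 31.9% higher and 33.2% lower in staggerer, and 26.4% and 30.5% in wild type cells. Among them, Mr1 was detected on 1 untreated and 2 treated staggerer arrays and on no wild type array, so it passed detection through the group where it is high, and its calls describe that filter. Mr1 is 1 of the 4 counted as rising in staggerer cells. It is also 1 of the 2 counted as falling in wild type cells (-0.98), between groups that did not detect it. Hfe, a regulator of iron uptake, rose by 1.73 ± 0.12 in staggerer cells (adjusted p = 2.51e-05) under all 5 scalings, and changed by 0.26 in wild type cells (adjusted p = 0.0995). Fcgrt, the neonatal Fc receptor, fell by 0.76 on the log2 scale in wild type cells (adjusted p = 0.000947) and rose by 0.65 in staggerer cells (adjusted p = 0.00164, passing under 4 of 5 scalings). The number of these 4 that rose in staggerer cells was 1 with no normalization between arrays.

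**Figure D4:**
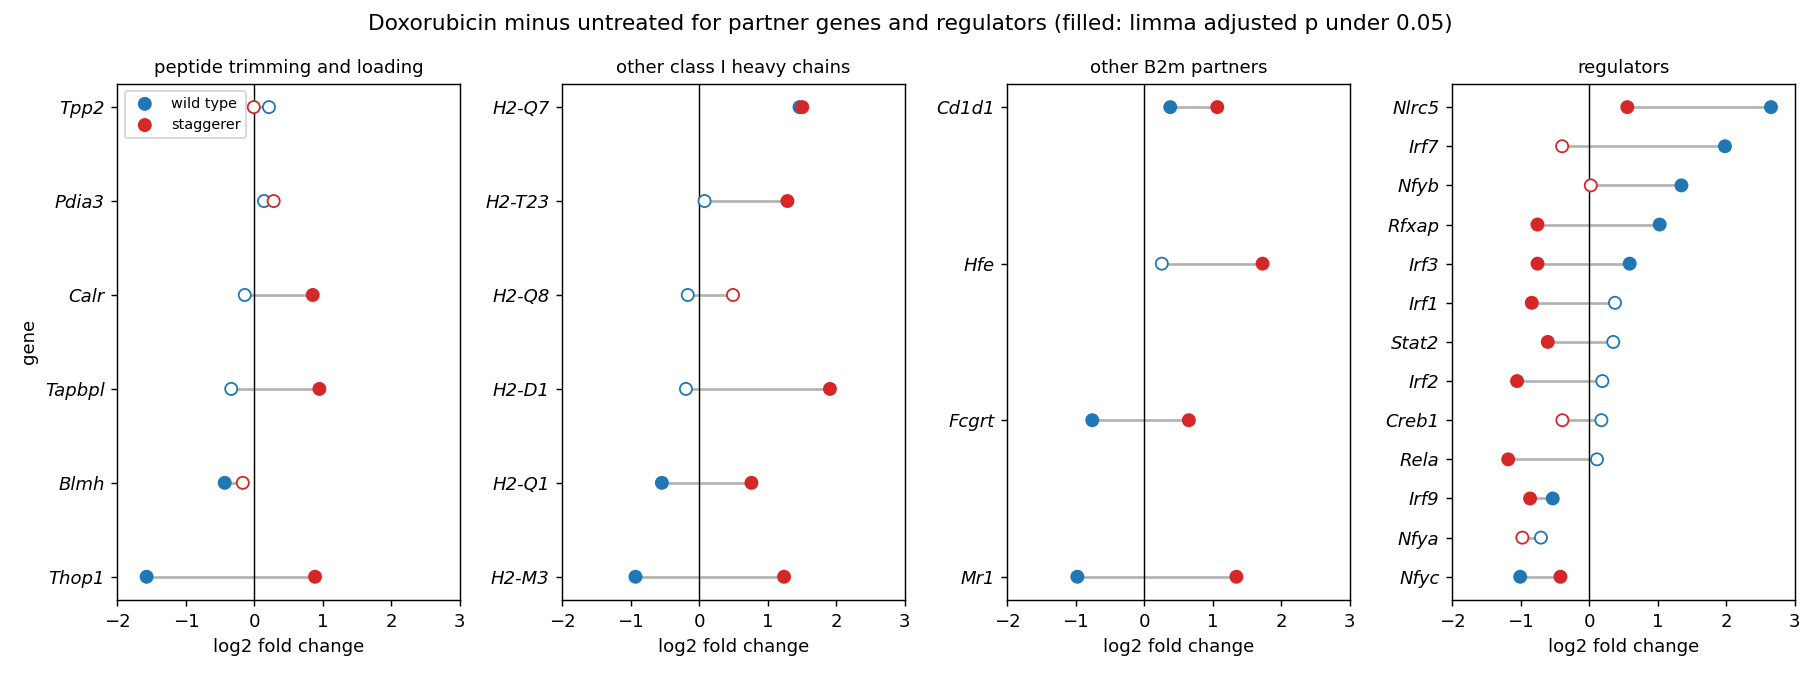
Log2 fold change with doxorubicin (x axes) in wild type and staggerer cells for peptide trimming and loading genes, other class I heavy chains, other partners of β2-microglobulin and regulators (panels, 1 gene per row), with filled points where limma's adjusted p was below 0.05. Values of some genes, among them H2-D1, H2-Q8, Mr1, Irf7 and Stat2, include groups in which they were not detected. Most heavy chains and partners lie further right in staggerer cells, and most regulators further right in wild type cells.

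Among 13 tested regulators of the pathway, 5 rose and 2 fell in wild type cells, and 1 rose and 8 fell in staggerer cells, with medians of 0.35 and -0.75, where 26.4% of all genes rose and 30.5% fell in wild type and 31.9% and 33.2% in staggerer cells. Nlrc5, the transactivator of class I genes, had a normalized log2 signal of 6.75 and 6.49 in untreated wild type, 9.11 and 9.44 in treated wild type, 6.15 and 6.55 in untreated staggerer, and 6.80 and 7.01 in treated staggerer cells. Treated wild type arrays were far above the other 6. The lowest detected signal was 6.06 to 6.13 on untreated arrays, and 6.70 and 6.86 on treated staggerer arrays. Outside treated wild type cells Nlrc5 was thus close to background. It rose by 2.65 ± 0.19 in wild type cells (adjusted p = 3.16e-05), which is 6.29-fold. Over the 5 scalings this rise ran from 1.61 to 2.74 and passed in all 5. The staggerer change of 0.56 ± 0.19 (adjusted p = 0.0347) passed under 2 of 5 scalings and was -0.16 at its lowest. The difference, -2.10 ± 0.27 (adjusted p = 0.0006), passed under all 5, and the treated wild type arrays were the highest, as for Tap1 and Psmb9.

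Irf7, which drives the type I interferon response, was not detected outside treated wild type cells. After background correction and quantile normalization it was at least 2.78-fold higher there than in untreated wild type cells. Over the 5 scalings its log2 change in wild type cells ran from 0.80 to 2.28. Irf7 passed detection through treated wild type cells alone and so had to differ, and its place among the 5 that rose carries no weight. Irf1, an activator of class I and Tap1 promoters, changed by 0.38 in wild type (adjusted p = 0.0639) and fell by 0.84 on the log2 scale in staggerer cells (adjusted p = 0.00182). Irf2 and Rela fell by 1.05 and 1.18 in staggerer cells (adjusted p = 0.000678 and 0.0006). The falls of all 3 passed under all 5 scalings. Rfxap, a subunit of the factor that binds the X box, rose by 1.03 in wild type cells (adjusted p = 0.00114) and fell by 0.76 in staggerer cells (adjusted p = 0.00416), each under all 5 scalings. The number of regulators that fell in staggerer cells was 5 to 10 over the scalings.

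The interferon genes Ifng and Ifnb1 were not detected on any array. Of 7 tested genes of interferon receptors and signalling, 1 rose and 1 fell in wild type and 2 rose and 2 fell in staggerer cells. The shares of all genes were 26.4% higher and 30.5% lower in wild type, and 31.9% and 33.2% in staggerer cells. Socs3, a feedback inhibitor, fell by 0.77 in wild type (adjusted p = 0.0173) and by 2.32 in staggerer cells (adjusted p = 8.36e-05), each under all 5 scalings. Jak1, the kinase shared by both interferon receptors, rose by 1.63 in staggerer cells (adjusted p = 0.000471), under all 5 scalings. In the class II pathway Cd74, H2-Aa, H2-Ab1 and Ciita were not detected, while H2-DMa, a class II peptide editor, rose by 1.94 in wild type cells (adjusted p = 4.87e-05). Of the 3 class II genes tested, H2-DMb1 changed by -0.04 in wild type and by 1.16 in staggerer cells. Its staggerer value ran from 0.17 to 1.29 over the 5 scalings and passed in 3. H2-Eb1 changed by 2.18 in wild type cells, between 0.85 and 2.55 over the 5 scalings. Of the class II genes, 3 were detected on both arrays of treated wild type cells and 2 on both arrays of each other group. A gene that passes detection through the group where it is high has to differ there. The value of H2-Eb1 is therefore not read as a measured rise.

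Marker lists of other cell types that a fibroblast culture can hold were set beside these results. Of 11 macrophage markers 4 were tested, and Itgam and Ptprc were not detected. Their summed linear signal was 4990 to 5170 in untreated wild type, 4640 to 5000 in treated wild type, 1210 to 1240 in untreated staggerer and 2310 to 2350 in treated staggerer cells. After quantile normalization the sum thus changed little with treatment in wild type cells and was higher with treatment in staggerer cells. On both arrays of a group, 3 of the 4 were detected in untreated wild type, 4 in treated wild type and 2 in each staggerer group. The median log2 change of the 4 was 0.83 in staggerer cells, but 0.18 there with no normalization between arrays. Lyz2 and Fcer1g rose by 0.91 and 1.21 in staggerer cells (adjusted p = 0.00035 and 0.000225), passing under 4 and 3 of 5 scalings, with lowest values of 0.20 and 0.24. Of 6 T and NK cell markers Cd3e was tested, with a signal of 192 to 288 in treated staggerer cells and of at most 98.6 elsewhere. Its log2 change with treatment in staggerer cells ran from 0.44 to 1.56 over the 5 scalings and passed in 4. Of 5 endothelial markers 1 was tested, and of 5 epithelial markers 3, with sums of 588 to 728 in wild type and 118 to 213 in staggerer cells. On both arrays of a group, 3 epithelial markers were detected in untreated wild type and 2 in treated wild type cells. In staggerer cells it was 0 without treatment and 1 with it, so those sums are mostly values below detection. The part of these cells in the values of the class I genes was not tested.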

How the data were processed

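Total RNA was labelled with Cy3 and hybridized to 8 Illumina bead arrays, 2 in each of 4 groups. The authors deposited linear intensity values, which cover 25697 probes and 1124 control rows. They also deposited a table of log2 values, which equalled quantile normalization of the log2 intensity without background correction (largest difference 5.09e-09), and a series matrix identical to it. Scanner software is not given in the sources used here.

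Intensities were corrected for background against 1114 control rows (limma 3.58.1 nec, offset 16, R 4.3.3), after 10 bright ones had been left out, then quantile normalized and put on the log2 scale. Probes with a control-based detection p below 0.01 on at least 2 of 8 arrays were kept (12362), and the brightest probe stood for each gene (9340 genes, of which 715 are unnamed). The 8 arrays were fitted together in limma (lmFit, eBayes), each group having its own mean (4 residual and 3.44 prior degrees of freedom), with two-sided p-values adjusted by Benjamini-Hochberg over all genes and a threshold of 0.05. Where neither array of a group detected a gene, it has a bound ("at least N-fold") there, against the lowest detected signal. Such a bound holds for the background-corrected, quantile-normalized values and not for the other scalings. The number of arrays limits the precision.

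The members and gene lists were chosen with earlier results of these data known. Named were all members, measured genes of the lists on proteasome, trimming, heavy chains, β2-microglobulin partners and regulators, up to 4 genes of each other list with the largest change, and the 5 genes most like Tap1 and Psme1. The 5 scalings were quantile normalization with and without background correction, centring on the median of all probes or of the genes tested, and none between arrays. The centring on the genes tested was chosen after seeing the data. Other alternatives were the authors' table, the detection filter, averaging the probes of a gene, a variance trend, the replicate number as a block, the 4 arrays compared alone, and each array left out. Probe symbols are from the platform annotation, updated through Entrez identifiers to RefSeq (23962 of 23978 probes with 1 symbol). The fit was tested on simulated data.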

Additional observations from a re-analysis of the deposited data

Results flagged for a closer look

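For 6 of the genes the response to doxorubicin differed between genotypes by a test of the difference itself (limma interaction, staggerer minus wild type, 2 arrays per group). The difference was negative for Tap1, at -1.63 (adjusted p = 0.00077), and for Psmb9, at -0.88 (adjusted p = 0.0159). It was positive for Tapbp, at 1.75 (adjusted p = 0.000786), Psmb10, at 1.05 (adjusted p = 0.0057), Tap2, at 0.97 (adjusted p = 0.009), and Psme1, at 0.65 (adjusted p = 0.00916). Those of Tap1, Psmb9 and Tapbp passed under all 5 scalings, that of Psme1 under 4, and those of Psmb10 and Tap2 under 3. For Tapbp this holds for the brighter of its probes. Of all genes tested, 59.2% were called in this comparison. The lower median signal of the treated staggerer arrays moves with the same contrast, and its part in these differences was not tested beyond the change of scaling.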

How the results depend on the processing

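Of 747 values of the genes under alternatives, 672 kept their direction and their side of the threshold, 31 passed newly, 34 no longer passed and 10 changed sign, and of 282 counts 246 stayed within 1.5 times; for single genes the cause was not tested. Of the 34 losses 9, the most under 1 setting, came with no normalization between arrays, which left 2 genes higher and 2 lower in wild type, 2 higher and 1 lower in staggerer, 0 higher and 2 lower between untreated genotypes (2570 of all genes called, against 1210), 1 higher after treatment and 1 more positive in the interaction. Centring on the median of all probes gave 2 lower in wild type, 1 lower between untreated genotypes, 3 higher after treatment and 2 more positive in the interaction. Sign changes with no normalization were Tap2 (-0.35), Psmb10 (-0.46) and Psme2 (-0.046) in staggerer cells, and Psmb10 (-0.36) and Psme1 (-0.054) between treated genotypes. With centring on all probes they were Tap2 in staggerer cells (-0.19), and Psmb10 (-0.086) and B2m (0.50) between treated genotypes; with centring on the genes tested, B2m between treated genotypes (1.41) and in the interaction (1.21).

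Between untreated genotypes 1 gene was higher (Psme2) and 1 lower (Psmb10) without background correction, in the authors' table and with detection on all 8 arrays, and 1 lower with the variance trend and with only the 4 arrays compared. Detection on all 8 arrays, which removes Psmb9, left 1 lower after treatment and 1 less positive in the interaction, and the 4 wild type arrays alone gave 2 lower. Leaving out 1 array at a time gave 4078 to 5878 genes called in wild type, 5138 to 6033 in staggerer, 523 to 1748 between untreated and 5999 to 6792 between treated genotypes, and 4729 to 5812 in the interaction. Of the class I genes it left 2 to 4 higher and 0 to 2 lower in wild type, 5 to 7 higher in staggerer, 0 between untreated genotypes, 3 to 5 higher and 2 lower between treated genotypes, and 4 to 5 and 1 to 2 in the interaction.

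The replicate number does not pair the samples, as deviations of like-numbered arrays correlated between groups at -0.03 to 0.03. With the replicate block B2m in wild type cells no longer passed (0.36, adjusted p = 0.0513), which left 3 genes higher there, and no other call on these genes changed. Genes near background, Tap1, Psmb9, Psmb8 and H2-K1 above all, have fold changes that background correction widens.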

Other observations

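Outside the pathway, the 5 genes whose pattern over the 8 arrays was nearest to that of Tap1 were Pigf, Nt5dc3, Gprc5a, Zfp365 and Col18a1. Their root mean square differences of gene-centred log2 values from Tap1 were 0.09, 0.14, 0.15, 0.15 and 0.16, all smaller than the 0.47 between Tap1 and its neighbour Psmb9. Pigf, an enzyme gene of the glycosylphosphatidylinositol anchor pathway, changed by 2.35 in wild type and 1.03 in staggerer cells, and Zfp365 by 2.56 and 1.12. Those nearest to Psme1 were Pno1, Poglut2, Lamc1, Rpl13a and Miip, at 0.04 to 0.08. The pattern of Psme1, flat in wild type and higher in treated staggerer cells, was also that of Rpl13a, a ribosomal protein gene, which changed by 0.08 and 0.83.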
